A study of Mus musculus with 8 samples.

Results

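Skin exposed to house dust mite (HDM) in butyrate-treated mice was compared with untouched skin of control (CTL) mice to describe which part of the response to the allergen was still present under butyrate and which genes were back near the level of healthy skin. The comparison rested on 4 of the 8 mice with RNA sequencing of dorsal skin, 2 in each group, chosen by the treatment and disease state in their labels. Lesional butyrate mice (replicates 3 and 4) drank 400 mM sodium butyrate from 2 weeks before allergen exposure until the end, and their shaved skin received 15 µg of HDM extract under an occlusive dressing in each of 4 exposures over 2 weeks. Baseline CTL mice (replicates 1 and 2) drank plain water and received no allergen. Lesional CTL mice (replicates 4 and 5) received HDM without butyrate and stand for lesional skin without treatment. All were female BALB/c mice on a low-fibre diet. The groups therefore differ in HDM exposure under a dressing, in butyrate and in the first number of their labels. That number is 5 for the baseline and 6 for the lesional mice, and the labels do not say what it stands for. The effects of allergen exposure, butyrate and whatever this number marks cannot be told apart in this comparison. Nothing in the labels says whether mice of a group shared a cage or litter, and the p-values measure only the spread between these mice.

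Atopic dermatitis is an inflammatory skin disease in which a weakened epidermal barrier, type 2 cytokines and infiltrating leukocytes sustain each other. Keratinocytes of healthy epidermis differentiate upwards through spinous and granular layers, replacing basal keratins by Krt1 and Krt10, and end as corneocytes enclosed in a cross-linked cornified envelope. Stressed or proliferating epidermis switches instead to the alarmin keratins Krt6, Krt16 and Krt17 and to small proline-rich and S100 proteins. Butyrate, a short-chain fatty acid (SCFA) made by gut bacteria from fibre, acts on cells through G protein-coupled receptors, by inhibiting histone deacetylases and by changing cell metabolism.

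Levels are given as CPM, the counts per 1000000 counts of a library scaled by the trimmed mean of M values (TMM), and the library totals were between 18004136 and 21085544 counts. Differences are log2 fold changes ± SE (n = 2 mice per group) of edgeR's quasi-likelihood test, and genes were called at a false discovery rate (FDR) below 0.1 with a fold change above 2. Of 15033 genes tested, 569 (3.79%) were called higher and 698 (4.64%) lower in butyrate-treated lesional skin than in baseline CTL skin, 8.43% in all. These counts come from a fit of the baseline CTL, lesional CTL and lesional butyrate mice. With the baseline butyrate mice added, whose replicates differed widely, 46 genes were called higher and 12 lower. With library totals in place of TMM the split was 722 higher and 558 lower, as this scaling moves the median of all genes by 0.12. Without baseline CTL replicate 1 or 2 the calls in both directions were 412 and 468. Replicates of the lesional butyrate group were farther apart than those of the other groups, with 618 of 14038 genes at or above 1 CPM differing over 2-fold, against 201 of 14035 in baseline CTL and 167 of 14082 in lesional CTL skin. The median log2 fold change of all tested genes was -0.01, and for 63.3% of them the 2 groups did not overlap. The skin markers Krt5 of keratinocytes, Col1a1 of fibroblasts and Pecam1 of endothelium were at no less than 4731, 581 and 82.1 CPM in any of these 6 mice.

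Between lesional CTL and baseline CTL skin 1860 genes were called, here named disease genes. Of these, 945 (6.29%) were higher and 915 (6.09%) lower in lesional CTL than in baseline CTL skin. In butyrate-treated lesional skin, 489 of the 945 raised genes (51.7%) and 475 of the 915 lowered genes (51.9%) were still called in the same direction against baseline. A further 71 raised genes (7.51%) and 114 lowered genes (12.5%) had a log2 fold change whose 95% interval lay within 2-fold of baseline, and these are described as near baseline. Over all tested genes that share was 68.7%. The remaining 711 disease genes met neither rule, and no gene was called in the opposite direction. Of these 711, 280 differed from baseline at FDR below 0.1 by under 2-fold, and 431 had an FDR at or above 0.1. The median log2 fold change of the raised genes was 1.73 in lesional CTL and 1.15 in lesional butyrate skin, and that of the lowered genes was -1.37 and -1.08. Both comparisons use the same baseline CTL mice and the genes were chosen by the first, so these counts are a description and were not tested. The number still called was 349 without baseline CTL replicate 1, 399 without replicate 2, 587 without lesional CTL replicate 4 and 56 with all 8 mice, and the number near baseline was 87 and 110 without either baseline mouse and 32 with all 8. Of the 185 genes near baseline, 68 still differed from it at FDR below 0.1 by less than 2-fold. In lesional CTL skin the genes near baseline had median log2 fold changes of 1.14 (raised) and -1.17 (lowered), close to the 2-fold threshold that selected them.

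Compared directly with lesional CTL skin, butyrate-treated lesional skin had 51 genes called higher (0.339%) and 137 called lower (0.911%), and with all 8 mice in the fit it had 0, with 734 genes at an unadjusted p below 0.05. The total of 188 fell to 24 without either baseline CTL mouse, to 12 and 5 without lesional CTL replicate 4 or 5, and rose to 640 without lesional butyrate replicate 4. In the 6 fits that each left out 1 mouse, Cxcl5 and Paqr7 were called between the lesional groups every time, Cxcl1 and Cxcl2 in 5, Il1b, Npr3 and Tmem8 in 4, Krt1 and Lor in 2, and Krt10 and Il33 in 1. Of the raised disease genes, 117 were called lower in lesional butyrate than in lesional CTL skin. Of these 117, 63 were still above baseline and 16 were near it. Of the lowered disease genes, 38 were called higher, of which 7 were still below baseline and 16 were near it. Most of the 185 genes near baseline were thus not called between the lesional groups. The plot of gene lists gives the same 2 comparisons with baseline for 24 lists of genes.

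**Figure D1:**
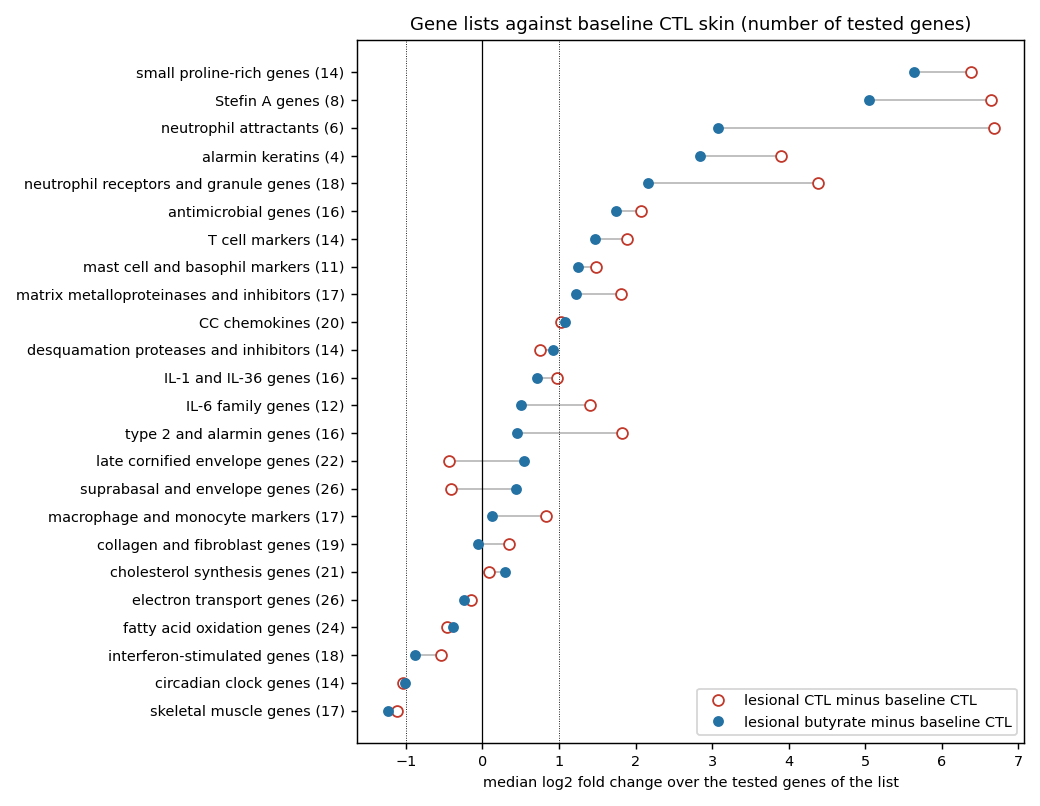
Median log2 fold change against baseline CTL skin over the tested genes of each list (x axis), for butyrate-treated lesional skin (filled blue) and lesional CTL skin (open red), with the number of tested genes in brackets and dotted lines at 2-fold. Small proline-rich genes stayed at 5.63 in butyrate-treated skin, neutrophil attractants were at 3.07 against 6.68, and suprabasal genes were at 0.43 against -0.41.

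Of all lists, the epidermal small proline-rich and Stefin A genes had the highest medians above baseline. All 4 alarmin keratins were still higher in butyrate-treated lesional than in baseline CTL skin, with a median log2 fold change of 2.84 against 3.90 in lesional CTL skin. Of the 4, 2 were called with all 8 mice. Krt6b (chr15:101676023-101680287, GRCm38), a keratin of stressed epidermis, was at 15.9 and 19.4 CPM in baseline CTL, 1813 and 1126 CPM in lesional CTL and 613 and 520.2 CPM in lesional butyrate mice. Both butyrate-treated mice were far above both baseline mice and below both lesional CTL mice. The log2 fold change against baseline was 5.00 ± 0.26 (FDR = 0.00279) and that against lesional CTL skin -1.38 ± 0.25 (FDR = 0.0902). Krt16, its partner of the hyperproliferative epidermis, was at 41.6 and 46 CPM in baseline and 923 and 676 CPM in butyrate-treated mice (4.19 ± 0.24, FDR = 0.00338). Its level in lesional CTL mice was 1706 and 1150 CPM, and this difference from the butyrate-treated mice did not pass the test (-0.84 ± 0.24, FDR = 0.193).

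Small proline-rich proteins are cross-linked into the cornified envelope of stressed skin. Of 14 tested genes, 13 were higher in butyrate-treated lesional skin than at baseline and 1 was also called lower than in lesional CTL skin. Sprr2a3 (chr3:92285417-92291405) stood at 0.613 and 0.779 CPM in baseline CTL and 268 and 174 CPM in lesional butyrate mice. This level overlapped the 412 and 159 CPM of lesional CTL mice, and the log2 fold change against baseline was 8.30 ± 0.81 (FDR = 0.00636). The most abundant member, Sprr1a, was at 155 and 139.8 CPM in baseline, 1017 and 1071 CPM in lesional CTL and 1331 and 1007 CPM in lesional butyrate mice. Sprr2i, one of the genes that the study names, was lower than in lesional CTL skin but still above baseline, with 2 counts in all at baseline and 13.9 and 7.41 CPM under butyrate, 208-fold more (95% counting interval 57.2 to 1720). Its level in lesional CTL mice was 45.8 and 36.9 CPM (-1.95 ± 0.29, FDR = 0.0681). The Sprr2 genes are near-identical copies, so reads can be split between them and single members are less certain than the group. Of the 14, 5 were called with all 8 mice.

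Stefin A genes, a family of cysteine protease inhibitors, were likewise raised, with 8 of 8 tested genes higher than baseline and 3 of them lower than in lesional CTL skin. Stfa3 was at 12.5 and 9.35 CPM in baseline CTL, 1042 and 446 CPM in lesional CTL and 469.5 and 265 CPM in lesional butyrate mice (5.07 ± 0.47 against baseline, FDR = 0.00941). BC100530, the most abundant of them, was at 12.2 and 14.6 CPM in baseline CTL, 2046 and 1139 CPM in lesional CTL and 834 and 605 CPM in lesional butyrate mice. For BC100530 the butyrate-treated mice were below both lesional CTL mice, and for Stfa3 they overlapped them. These genes are also near-identical copies, and with all 8 mice 1 of the 8 was called.

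Late cornified envelope genes of damaged skin remained above baseline. All 6 tested Lce3 genes, the members induced in damaged skin, were higher than baseline, such as Lce3b with 0.111 and 0.111 CPM in baseline CTL, 27.8 and 23.9 CPM in lesional CTL and 6.98 and 3.31 CPM in lesional butyrate mice. Lce3b was called against both groups (5.45 ± 0.96, FDR = 0.0104, and -2.33 ± 0.32, FDR = 0.0616). Of the whole list of 22 tested genes, 8 were higher than baseline and 1 lower, and 5 were called with all 8 mice. In lesional CTL skin, 6 were higher than baseline and 8 lower. Between the lesional groups, 4 were called lower under butyrate and none higher. The summed level of the list was 2380 and 1830 CPM in baseline CTL, 747.8 and 906.5 CPM in lesional CTL and 1888 and 1207 CPM in lesional butyrate mice. The gene lower than baseline under butyrate was Lce1m, an envelope protein of healthy skin, at 689 and 599.7 CPM in baseline CTL, 11.5 and 41.5 CPM in lesional CTL and 177 and 107 CPM in lesional butyrate mice. Butyrate-treated mice were above both lesional CTL mice but at a log2 fold change of -2.18 ± 0.54 below baseline (FDR = 0.0484), and the difference from lesional CTL skin did not pass the test (2.41 ± 0.56, FDR = 0.146). Lce1m was called against baseline in 3 of 6 fits that each left out 1 mouse, not without baseline CTL replicate 1 or 2 or lesional butyrate replicate 4.

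Kallikreins, the serine proteases that release corneocytes at the surface, made up the 6 genes called higher among 14 desquamation genes. None of the 14 was called between the lesional groups, and none against baseline with all 8 mice. Klk6 was at 12.7 and 11 CPM in baseline CTL, 208 and 148 CPM in lesional CTL and 219 and 129 CPM in lesional butyrate mice, a log2 fold change of 3.88 ± 0.29 against baseline (FDR = 0.00636) and of -0.03 ± 0.28 against lesional CTL skin (FDR = 0.969). Its lesional groups overlapped. Klk7, the most abundant of the kallikreins listed, was at 279 and 247 CPM in baseline and 877 and 526 CPM in butyrate-treated mice (1.41 ± 0.25, FDR = 0.0224). Of 11 EGF receptor ligands, 4 were higher than baseline, 1 was lower and 6 were not called, and none was called with all 8 mice. Hbegf, a ligand of keratinocytes, was at 10.5 and 8.96 CPM in baseline and 44.7 and 24.3 CPM in butyrate-treated mice (1.83 ± 0.31, FDR = 0.0216). Betacellulin (Btc) was the 1 member below baseline (-1.41 ± 0.28, FDR = 0.0284). The calls of Klk7, Hbegf and Btc were lost without either baseline CTL mouse.

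The genes farthest above baseline were nearly silent in healthy skin, so their folds rest on few baseline counts. The antimicrobial peptide gene Defb3 had 0 counts in both baseline mice and was at 7.5 and 2.24 CPM in lesional butyrate and 27.6 and 21.7 CPM in lesional CTL mice, at least 63-fold higher in butyrate-treated mice than a floor of 3 counts over the baseline group. Gsdmc2, which encodes a gasdermin, had 15.8 and 9.69 CPM in butyrate-treated and 21.8 and 11.4 CPM in lesional CTL mice against 2 baseline counts, 249-fold above baseline in butyrate-treated mice (95% counting interval 68.5 to 2060). Its lesional groups overlapped. Serpinb3a, a serine protease inhibitor family member, was at 36.4 and 10.2 CPM in butyrate-treated and 106 and 30.1 CPM in lesional CTL mice, with 0.167 and 0.0557 CPM at baseline. Uox, the urate oxidase gene, and Fgf23, a hormone of phosphate balance, were also among these, at 14.6 and 4.1 and at 4.68 and 3.17 CPM in butyrate-treated mice, each with at most 2 baseline counts. Fgf23 was also lower than the 19.9 and 17 CPM of lesional CTL mice (-2.23 ± 0.25, FDR = 0.0434), while Uox was not called between the lesional groups (FDR = 0.203). The calls of Defb3, Serpinb3a and Uox against baseline were lost without either baseline CTL mouse.

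**Figure D2:**
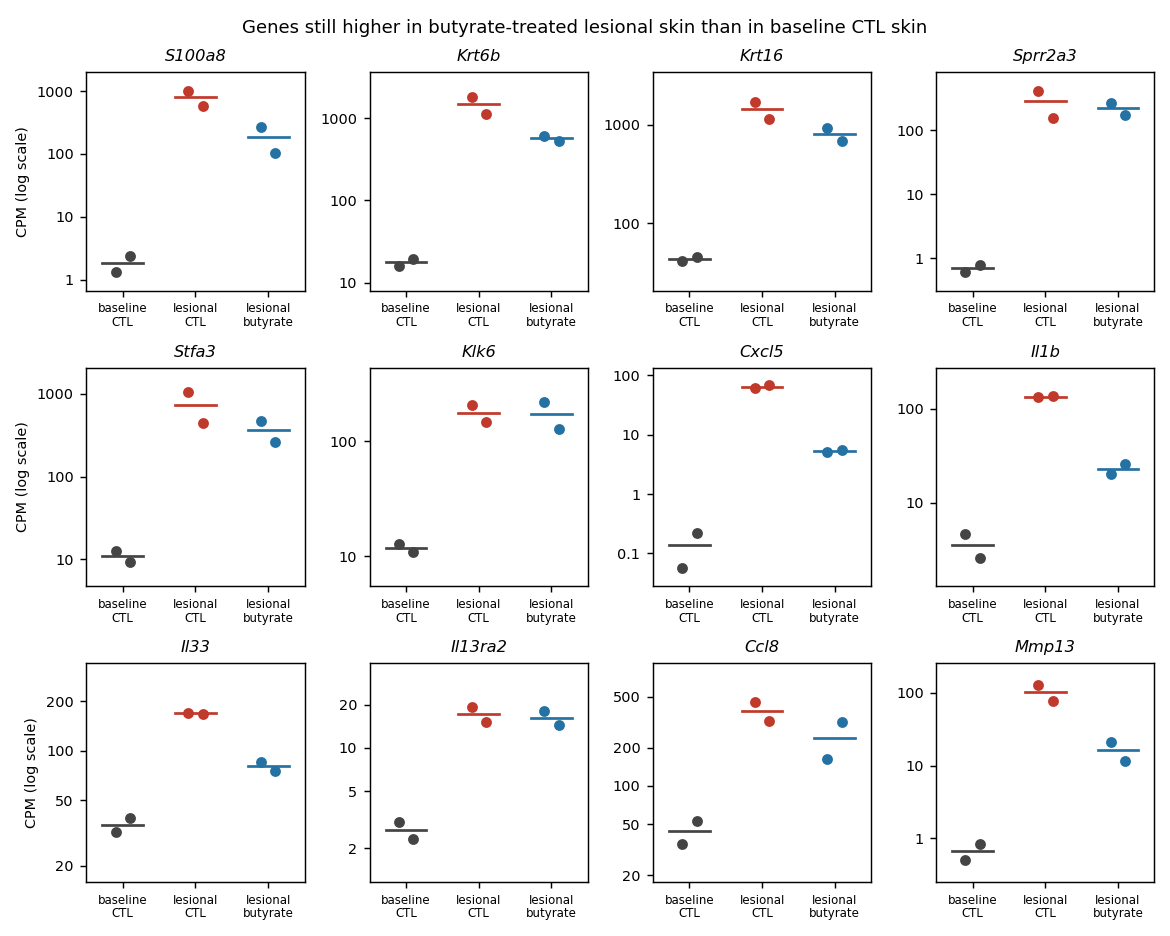
CPM on a log scale in each mouse (points) with the group mean (line) for 12 genes that were still higher in lesional butyrate than in baseline CTL skin. The butyrate-treated mice lay above both baseline mice in every panel, and for Sprr2a3, Stfa3, Klk6 and Il13ra2 they overlapped the lesional CTL mice.

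The list of neutrophil attractants, which also holds the growth factor genes Csf2 and Csf3, had the lowest median against lesional CTL skin of all lists. Of 6 tested genes, 5 were higher than in baseline CTL skin and 5 were lower than in lesional CTL skin, with median log2 fold changes of 3.07 against baseline and -3.39 against lesional CTL skin. Csf2 was the member not lower than in lesional CTL skin, with 25 counts in lesional butyrate, 16 in lesional CTL and 2 in baseline CTL mice. Csf3 had 14, 123 and 0 counts in the same order. Cxcl5 was at 0.0557 and 0.223 CPM in baseline CTL, 62.3 and 67.5 CPM in lesional CTL and 5.16 and 5.5 CPM in lesional butyrate mice, so the 3 groups were fully apart. Its log2 fold change was 5.20 ± 0.51 against baseline (FDR = 0.00279) and -3.60 ± 0.16 against lesional CTL skin (FDR = 0.00366). Cxcl1 was at 2.06 and 1.67 CPM, 26.4 and 36.3 CPM and 6.74 and 6.06 CPM in the same order of groups (1.77 ± 0.24 against baseline, FDR = 0.0128). Cxcl2 fell from 18.8 and 31.9 CPM to 1.58 and 0.932 CPM, with 0.167 and 0.278 CPM at baseline, and its call against baseline was lost without either baseline CTL mouse or lesional butyrate replicate 3. Cxcl3 was the 1 tested member not called against baseline (FDR = 0.108), at 0.669 and 0.233 CPM under butyrate with 2 baseline counts in all. With all 8 mice in the fit, Cxcl5 was the 1 attractant called against baseline.

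Cxcl1, Cxcl2, Cxcl3 and Cxcl5 lie in a cluster on chromosome 5, and all were lower than in lesional CTL skin. The promoters of Cxcl1, Cxcl2 and Cxcl3 are shown. That of Cxcl5 was not found among the RefSeq promoters. The RefSeq promoter sequences on GRCm38.p6 run from 250 bases before to 50 bases after the start, and capitals mark matches to the NF-kB motif searched on both strands, with matches that overlap joined.
Cxcl1 (chr5:90890995-90891294, plus strand): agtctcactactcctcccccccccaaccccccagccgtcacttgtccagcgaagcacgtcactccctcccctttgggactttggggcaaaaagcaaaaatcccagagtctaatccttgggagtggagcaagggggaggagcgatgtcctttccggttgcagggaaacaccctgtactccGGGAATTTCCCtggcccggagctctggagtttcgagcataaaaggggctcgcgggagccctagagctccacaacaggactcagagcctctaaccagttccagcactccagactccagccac
Cxcl2 (chr5:90903649-90903948, plus strand): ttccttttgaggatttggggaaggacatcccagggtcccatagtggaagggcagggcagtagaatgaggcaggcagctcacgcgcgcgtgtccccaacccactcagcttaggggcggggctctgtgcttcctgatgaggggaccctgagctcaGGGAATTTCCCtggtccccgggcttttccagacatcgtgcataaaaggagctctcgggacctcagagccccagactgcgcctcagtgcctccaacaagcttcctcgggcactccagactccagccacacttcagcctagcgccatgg
Cxcl3 (chr5:90785851-90786150, plus strand): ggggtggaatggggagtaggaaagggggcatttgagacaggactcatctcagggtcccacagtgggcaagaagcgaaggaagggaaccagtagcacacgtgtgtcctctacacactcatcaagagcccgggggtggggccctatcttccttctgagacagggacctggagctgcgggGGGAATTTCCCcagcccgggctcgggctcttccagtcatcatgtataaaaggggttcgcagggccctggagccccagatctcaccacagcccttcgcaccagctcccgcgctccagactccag
All 3 hold the same 11 bases in capitals. The motif was found in 3 of the 6 promoters of the neutrophil attractant list in the RefSeq table, which are the 3 shown. It was found in 8.46% of all 32851 promoters and in 3 of 22 suprabasal and envelope promoters (13.6%). It was found in 0 of 14 small proline-rich, 0 of 7 Stefin A and 0 of 20 late cornified envelope promoters. A match describes the letters only and shows no binding.

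Receptor and granule genes of neutrophils were in part still above baseline. Of 18 tested genes, 11 were higher than in baseline CTL skin and 8 were lower than in lesional CTL skin, with a median log2 fold change of 2.16 against baseline and 4.38 in lesional CTL skin. The log2 fold change against baseline was positive for 14 of the 18, and none was called lower. Mpo, Il1r2, Itgam and Fpr2 went the other way, at -1.45, -0.88, -0.60 and -0.34 with all 8 mice in the fit. In whole skin, fewer cells of a type and less RNA per cell cannot be told apart. S100a8, a calcium-binding alarmin of neutrophils and stressed keratinocytes, was at 1.34 and 2.39 CPM in baseline CTL, 1002 and 579.9 CPM in lesional CTL and 265 and 102 CPM in lesional butyrate mice. Its log2 fold change against baseline was 6.62 ± 0.65 (FDR = 0.0088), and the difference from lesional CTL skin did not pass the test (-2.11 ± 0.48, FDR = 0.144). Cxcr2, the receptor of these attractants, was at 2.23 and 2.62 CPM in baseline, 57 and 64.6 CPM in lesional CTL and 35.8 and 26.4 CPM in butyrate-treated mice (3.68 ± 0.21 against baseline, FDR = 0.00279). The granule protein gene Lcn2 was at 5.68 and 5.96 CPM, 180.4 and 168 CPM and 74.3 and 46.9 CPM and was called against both groups. Of the defining neutrophil genes, Ly6g had 0 counts and Elane was at 0.287 and 0.373 CPM in butyrate-treated mice, and neither was tested. The granule genes Camp, Ngp and Ltf were not tested either. Against baseline, 4 of the 18 genes were called with all 8 mice.

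Of 16 type 2 and alarmin genes, 5 were higher than baseline and 1 was lower, where lesional CTL skin had 9 higher and 1 lower. Near baseline were 8 (50%), against 68.7% of all tested genes, and 1 was called with all 8 mice. The cytokine gene Il13 was at 0.111 and 0 CPM in baseline CTL, 3.64 and 1.62 CPM in lesional CTL and 2.39 and 1.86 CPM in lesional butyrate mice, 41.5-fold above baseline by counts (95% counting interval 11.2 to 348). Its call was lost without baseline CTL replicate 2, and its level overlapped that of lesional CTL mice (-0.29 ± 0.48, FDR = 0.838). The decoy receptor gene Il13ra2 was likewise at 17.9 and 14.3 CPM in butyrate-treated and 19.4 and 15.1 CPM in lesional CTL mice, against 3.06 and 2.34 CPM at baseline (2.58 ± 0.23, FDR = 0.00636). The alarmin gene Il33 was at 32 and 39.4 CPM, 170.4 and 167 CPM and 86.1 and 75.6 CPM in baseline CTL, lesional CTL and lesional butyrate mice. It was above baseline (1.18 ± 0.13, FDR = 0.009) and below lesional CTL skin (-1.06 ± 0.13, FDR = 0.0461), as was its receptor Il1rl1 at 6.46 and 7.85 CPM, 55.8 and 57.1 CPM and 20.6 and 20.2 CPM. The interleukin-4 receptor gene Il4ra was near baseline, at 59.6 and 79.96 CPM in baseline CTL, 273 and 263 CPM in lesional CTL and 104 and 91.3 CPM in lesional butyrate mice (0.49 ± 0.16, 95% interval 0.11 to 0.86, FDR = 0.0759). Both butyrate-treated mice were above both baseline mice for Il4ra, by less than 2-fold. Csf2rb, a receptor chain shared by eosinophil and myeloid growth factors, was within 2-fold but still higher than baseline at 71.7 and 72.5 against 43.5 and 41.1 CPM (0.77 ± 0.09, FDR = 0.0105). The itch receptor gene Il31ra was lower than baseline in both lesional groups, at 89.5 and 74.6 CPM in baseline CTL, 12.1 and 17.6 CPM in lesional CTL and 12.6 and 15.6 CPM in lesional butyrate mice (-2.54 ± 0.21, FDR = 0.00636).

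Many markers of T cells and mast cells were still above baseline. Of 14 T cell markers, 8 were higher than baseline and none was called between the lesional groups. The costimulator gene Icos was at 1.06 and 1.5 CPM in baseline CTL, 33.3 and 17.7 CPM in lesional CTL and 19.9 and 11.6 CPM in lesional butyrate mice (3.61 ± 0.50, FDR = 0.0133). Foxp3, the factor of regulatory T cells, was at 0.78 and 0.668 CPM in baseline and 5.3 and 3.59 CPM in butyrate-treated mice (2.61 ± 0.39, FDR = 0.0138). The butyrate-treated mice were above both baseline mice for each of these genes. Of 11 mast cell and basophil markers, 6 were higher, such as the mast cell carboxypeptidase gene Cpa3 at 35.5 and 49.5 CPM in baseline and 101 and 105 CPM in butyrate-treated mice (1.28 ± 0.20, FDR = 0.0176). With all 8 mice in the fit, none of the T cell and mast cell markers was called, and without baseline CTL replicate 1 the calls of Icos and Cpa3 were lost.

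Among CC chemokines, 10 of 20 tested genes were higher than baseline and 9 were higher in lesional CTL skin. Ccl8, a monocyte and T cell attractant, was at 35.4 and 53.2 CPM in baseline CTL, 457 and 322 CPM in lesional CTL and 163 and 314 CPM in lesional butyrate mice (2.43 ± 0.36, FDR = 0.0175), a call lost without baseline CTL replicate 1. Ccl3 and Ccl4, attractants of macrophages and T cells, were lower than in lesional CTL skin at 0.717 and 1.68 and at 0.0956 and 0.932 CPM, and Ccl4 was not called against baseline (0.74 ± 1.01, FDR = 0.619). Ccl3 was called against baseline (FDR = 0.0977) but in 1 of 6 fits that each left out 1 mouse. Of 16 IL-1 and IL-36 genes, 5 were higher than baseline, and with all 8 mice none of these and of the CC chemokines was called. Il1b was at 4.57 and 2.56 CPM, 132 and 136 CPM and 19.9 and 25.5 CPM in baseline CTL, lesional CTL and lesional butyrate mice and was called against both (2.67 ± 0.26, FDR = 0.00821, and -2.56 ± 0.21, FDR = 0.0254). The keratinocyte IL-36 gene Il1f6 was at 63.4 and 25.4 CPM under butyrate and 39.4 and 35.1 CPM in lesional CTL mice, with 4.29 and 2.95 CPM at baseline, and the lesional groups overlapped. Macrophage and monocyte markers had 1 of 17 genes higher than baseline and 1 lower, where lesional CTL skin had 7 higher, and none was called against baseline with all 8 mice. Over all tested genes, 3.79% were called higher and 4.64% lower. The intervals of these markers were wide, and 2 of the 17 (11.8%) were near baseline. The most abundant, Lyz2, was at 241 and 297 CPM in baseline, 450.1 and 504 CPM in lesional CTL and 329.7 and 566 CPM in butyrate-treated mice (0.74 ± 0.26, FDR = 0.103).

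Of 17 metalloproteinases and inhibitors, 8 were higher than baseline and 6 were lower than in lesional CTL skin. Near baseline were 5 (29.4%), against 68.7% of all tested genes, and 2 were called against baseline with all 8 mice. The summed level of the 17 under butyrate, 1351 and 1733 CPM, spanned that of baseline CTL mice, 1420 and 1451 CPM. The collagenase gene Mmp13 was at 0.501 and 0.835 CPM in baseline CTL, 128 and 78.4 CPM in lesional CTL and 21.4 and 11.7 CPM in lesional butyrate mice (4.62 ± 0.64 against baseline, FDR = 0.0105). Adamts4, an aggrecanase, was at 1.45 and 1.67 CPM, 29.5 and 32.8 CPM and 10.9 and 9.83 CPM, with the 3 groups apart. The matrix glycoprotein gene Tnc followed the same order at 46.7 and 32 CPM, 933 and 696 CPM and 157 and 206 CPM (2.21 ± 0.25 against baseline, FDR = 0.011), as did the endothelial selectin gene Selp at 5.35 and 6.57 CPM, 39.6 and 36.3 CPM and 13.4 and 14 CPM (1.20 ± 0.15, FDR = 0.0108).

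Some keratinocyte differentiation genes that were lowered in untreated lesional skin were closer to the level of healthy skin under butyrate. Of 26 suprabasal and envelope genes, 10 were lower in lesional CTL than in baseline CTL skin, but 1 was lower in lesional butyrate skin, 5 were higher and 9 (34.6%) were near baseline, a smaller share than among all genes. Between the lesional groups, 4 of the 26 were called higher under butyrate and none lower. Their summed level was 27140 and 24730 CPM in baseline CTL, 10470 and 12050 CPM in lesional CTL and 28740 and 20850 CPM in lesional butyrate mice. Krt1 (chr15:101845426-101850794), the keratin of spinous cells, was at 3365 and 3303 CPM in baseline CTL, 1481 and 1509 CPM in lesional CTL and 4011 and 3077 CPM in lesional butyrate mice. Both lesional CTL mice were below all others, and the butyrate-treated mice lay on either side of baseline (0.09 ± 0.19, 95% interval -0.38 to 0.55, FDR = 0.77). Its partner Krt10 was at 6968 and 6688 CPM, 836 and 1700 CPM and 4854 and 3991 CPM, above lesional CTL skin (1.80 ± 0.34, FDR = 0.0992). Krt10 in both butyrate-treated mice was below both baseline mice, and its interval of -1.46 to 0.21 against baseline was too wide to place it within 2-fold. Krt77 was at 4255 and 3938 CPM, 195 and 765 CPM and 3110 and 2449 CPM and was called neither against baseline (-0.56 ± 0.58, FDR = 0.523) nor against lesional CTL skin (FDR = 0.147).

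Of the major envelope proteins, loricrin and filaggrin-2 lay between baseline and lesional CTL skin. Loricrin (Lor) was at 703 and 618 CPM in baseline CTL, 101 and 147 CPM in lesional CTL and 424 and 298 CPM in lesional butyrate mice, higher than in lesional CTL skin (1.54 ± 0.24, FDR = 0.0776) and below both baseline mice at a difference under 2-fold (-0.87 ± 0.24, FDR = 0.0572). The filaggrin relative Flg2 was at 719 and 602 CPM, 54.6 and 130.1 CPM and 466 and 252 CPM and was not called against either group. Involucrin (Ivl), by contrast, was not called in lesional CTL skin at 166 and 167 CPM but was above baseline under butyrate, at 349.9 and 248 against 147 and 147 CPM (1.02 ± 0.17, FDR = 0.0175). This call held in 3 of 6 fits that each left out 1 mouse, and was lost without either baseline CTL mouse or lesional butyrate replicate 3. Repetin (Rptn), also an envelope protein, remained high at 274 and 159 CPM against 37.9 and 19.8 CPM at baseline and 476 and 294 CPM in lesional CTL mice (2.91 ± 0.41, FDR = 0.0162). With all 8 mice in the fit, none of the 26 genes was called against baseline.

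The butyrate-treated mice also differed from each other in dermal genes. Summed collagen and fibroblast genes were at 4797 and 11430 CPM in replicates 3 and 4, against 8338 and 10060 CPM in baseline CTL mice, and the summed suprabasal genes were higher in replicate 3. Without replicate 3 the median log2 fold change of the suprabasal genes against baseline was 0.16, and without replicate 4 it was 0.60. The part of tissue composition in these results was not tested. Basal keratinocyte genes gave 1 of 14 called, where 8.43% of all tested genes were. This was the hemidesmosome linker Dst, which was lower in both lesional groups, at 1429 and 1273 CPM in baseline CTL, 409.9 and 507 CPM in lesional CTL and 414 and 493 CPM in lesional butyrate mice (-1.58 ± 0.17, FDR = 0.00909). The basal keratin gene Krt5 was near baseline at 5912 and 5956 against 4957 and 4795 CPM.

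**Figure D3:**
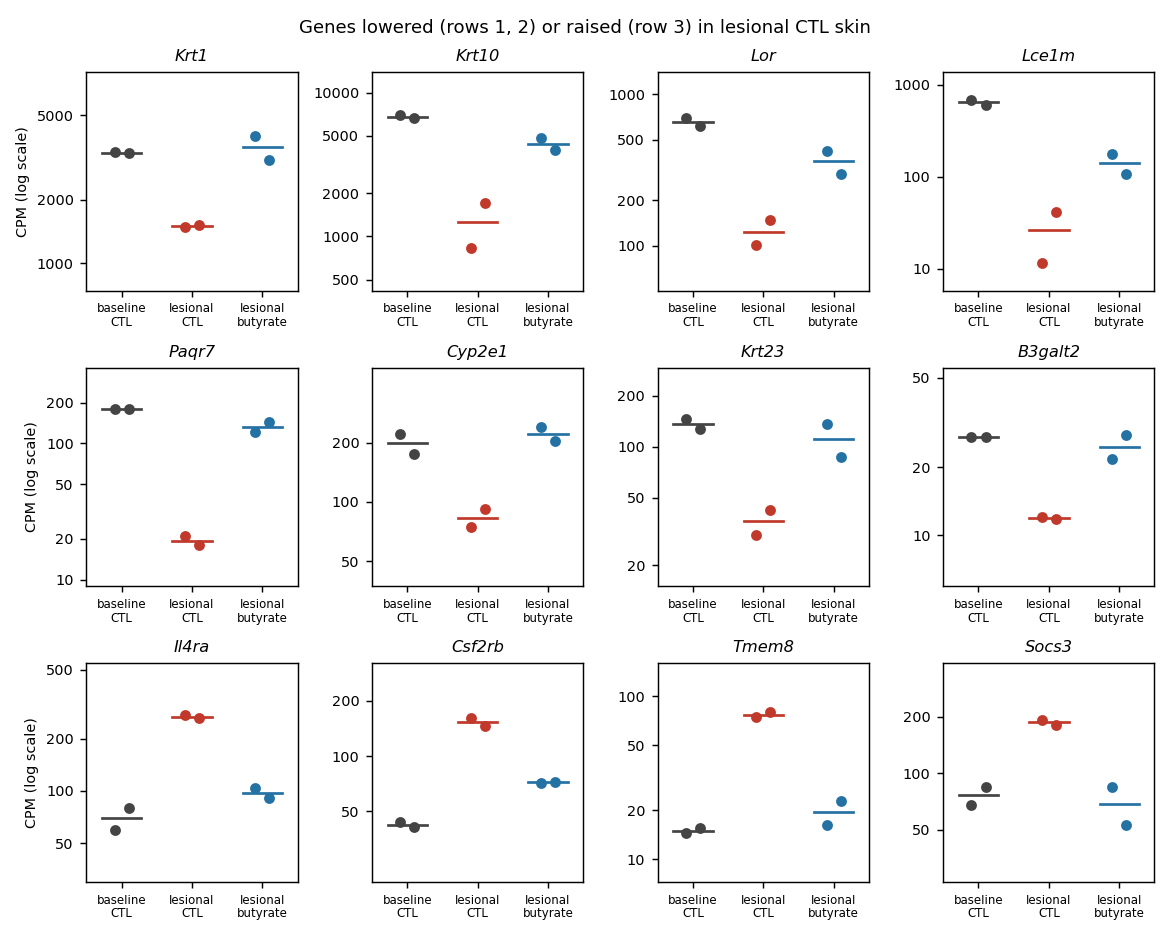
CPM on a log scale in each mouse (points) with the group mean (line) for 12 genes that were lower (first 8 panels) or higher (last 4) in lesional CTL than in baseline CTL skin. Butyrate-treated mice lay beside baseline mice for Krt1, Cyp2e1, B3galt2 and Socs3, between the groups for Krt10 and Lor, and far below baseline for Lce1m.

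Paqr7, a membrane progestin receptor gene (chr4:134496697-134510235), was the disease gene with the largest drop among those near baseline. It was at 180.4 and 179.9 CPM in baseline CTL, 20.8 and 17.8 CPM in lesional CTL and 122 and 144 CPM in lesional butyrate mice, with a log2 fold change against baseline of -3.22 ± 0.12 in lesional CTL and -0.44 ± 0.12 in butyrate-treated mice (95% interval of the latter -0.73 to -0.15). The difference between the lesional groups was 2.78 ± 0.12 (FDR = 0.00366). The epithelial keratin gene Krt23 was at 147 and 128 CPM, 30.1 and 42.7 CPM and 136 and 86.8 CPM in the same order of groups. Cyp2e1, a fatty acid and xenobiotic oxidase, was at 222 and 175 CPM, 74.6 and 91.7 CPM and 239.8 and 204 CPM, so that butyrate-treated and baseline mice overlapped (0.16 ± 0.17, 95% interval -0.24 to 0.56). The glycosyltransferase gene B3galt2 was at 27.2 and 27.3 CPM, 12 and 11.8 CPM and 21.7 and 27.7 CPM and overlapped as well. The aldehyde dehydrogenase gene Aldh3a1 was within 2-fold but still below baseline, at 64.1 and 69.8 against 111 and 101 CPM (-0.67 ± 0.12, FDR = 0.0216). Others of this kind were Pon1, Nxph4, Zc2hc1c, P2ry4, Rgs9bp, Mboat2 and Aqp5, all lower in lesional CTL skin and near baseline under butyrate.

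Genes higher in lesional CTL than in baseline CTL skin and near baseline under butyrate included regulators of signalling. Tmem8 was at 14.5 and 15.5 CPM in baseline CTL, 74.1 and 79.7 CPM in lesional CTL and 16.1 and 22.9 CPM in lesional butyrate mice (0.38 ± 0.17, 95% interval -0.04 to 0.80). Socs3, a feedback inhibitor of cytokine signalling, was at 67.9 and 84.2 CPM, 192 and 180.1 CPM and 84.4 and 52.6 CPM (-0.15 ± 0.23, 95% interval -0.72 to 0.42) and was lower than in lesional CTL skin (-1.44 ± 0.23, FDR = 0.0778). Arg2, the mitochondrial arginase, was at 5.74 and 3.45 CPM, 12.9 and 17 CPM and 5.02 and 5.68 CPM. Its cytosolic relative Arg1 was lower than baseline in both lesional groups, at 41.8 and 32.3 CPM in baseline CTL, 8.83 and 11 CPM in lesional CTL and 11.1 and 9.09 CPM in lesional butyrate mice. Ifi202b, Cd209c, Vav1, Rnd1 and Pcsk5 were the other raised genes named by the same rule.

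In butyrate-treated lesional skin, 16 genes stood apart from both other groups. There were 7 called higher and 9 called lower. The receptor gene of interleukin-12, Il12rb2, was at 8.08 and 6.9 CPM in baseline CTL, 7.54 and 8.41 CPM in lesional CTL and 20.6 and 23.3 CPM in lesional butyrate mice (1.55 ± 0.15 against baseline, FDR = 0.00809). Ccl21a, a lymphatic chemokine gene, was at 26.4 and 26.6 CPM, 30.9 and 25.5 CPM and 63.4 and 56 CPM in the same order (1.17 ± 0.13, FDR = 0.009), and has near-identical copies. In both genes the butyrate-treated mice were above all 4 others. The remaining higher genes were Apoc4, Slc23a3, Cpm, Slc46a2 and Fxyd2. Npr3, the clearance receptor of natriuretic peptides, was at 43 and 69.3 CPM in baseline CTL, 38.4 and 35.3 CPM in lesional CTL and 4.25 and 6.48 CPM in lesional butyrate mice (-3.39 ± 0.29 against baseline, FDR = 0.00636), and it was called with all 8 mice too. Il20, an epidermal cytokine gene, was at 1.56 and 1.28 CPM, 2.51 and 2.96 CPM and 0.191 and 0.0466 CPM, close to the level of 3 counts (0.143 and 0.140 CPM) under butyrate. Cyp17a1, a steroid-synthesis enzyme gene, was at 61.1 and 72.9 CPM, 33.8 and 23.9 CPM and 10.8 and 6.38 CPM, and Serpina3b at 146 and 128 CPM, 39.8 and 42.2 CPM and 16.7 and 20.04 CPM, so that both were lowest in butyrate-treated mice. The other lower genes were Serpinb9b, Prkg1, Oas2, Sln and Lrrc2. Of the 16, the calls of Slc23a3, Cpm, Serpinb9b, Prkg1 and Sln against baseline were lost without at least 1 of the baseline CTL mice. The calls against lesional CTL skin were less firm: of the 6 fits that each left out 1 mouse, Npr3 was called in 4 and each of the other genes in 1 or 2, and with all 8 mice none was.

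**Figure D4:**
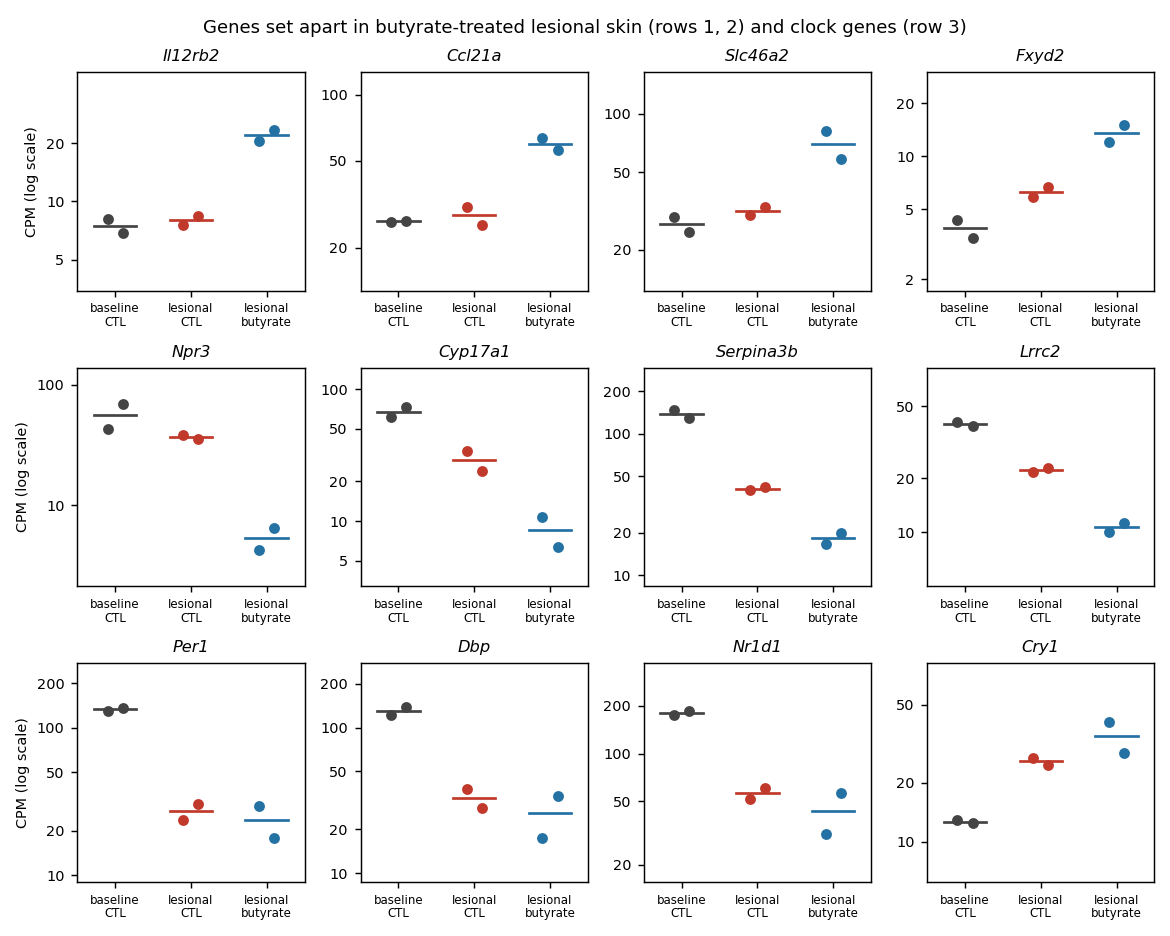
CPM on a log scale in each mouse (points) with the group mean (line) for 4 genes called higher and 4 called lower in lesional butyrate than in both other groups, and for 4 clock genes. Butyrate-treated mice were outside the range of the other 4 mice in the first 8 panels, and for Per1, Dbp and Nr1d1 both lesional groups were below baseline.

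Many genes of skeletal muscle were below baseline in both lesional groups. Of 17 skeletal muscle genes, 11 were lower than in baseline CTL skin and none was higher, with a summed level of 61630 and 71380 CPM in baseline CTL, 24960 and 34850 CPM in lesional CTL and 19750 and 37160 CPM in lesional butyrate mice. Myh2, a fast myosin heavy chain gene, was at 1355 and 1095 CPM in baseline and 189.7 and 352 CPM in butyrate-treated mice (-2.18 ± 0.29, FDR = 0.0145). None of the list was called between the lesional groups, and none was called against baseline with all 8 mice. The part of these muscle values in the other results was not tested. Nnat, which encodes neuronatin, had the largest decrease among genes with a mean of at least 1 CPM, from 35.7 and 18.4 CPM to 0.382 and 0.28 CPM (-6.33 ± 0.75, FDR = 0.00821), with 1.87 and 0.693 CPM in lesional CTL mice. The channel gene Kcnj16 fell alike, from 16.3 and 11.5 CPM to 0.669 and 0.979 CPM. Others named for a large decrease were Slc12a1, Arhgap36, 2610028H24Rik, Gabrp, Krt24, Npr3 and Sbk2.

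Circadian clock genes had a median log2 fold change of -1.02 against baseline under butyrate and -1.04 without it. Of 14 tested genes, 7 were lower than baseline and 1 was higher, and none was called between the lesional groups. The clock repressor gene Per1 was at 129.8 and 137 CPM in baseline CTL, 23.8 and 30.4 CPM in lesional CTL and 29.4 and 17.9 CPM in lesional butyrate mice (-2.49 ± 0.24, FDR = 0.00878). Dbp, a clock output factor, was at 122 and 138 CPM in baseline and 17.4 and 34 CPM in butyrate-treated mice, and Nr1d1, a nuclear receptor of the clock, at 176 and 185 and 31.1 and 56.2 CPM. Cry1, the 1 higher member and named for that reason after its values were seen, was at 12.9 and 12.4 CPM in baseline and 40.9 and 28.2 CPM in butyrate-treated mice (1.45 ± 0.19, FDR = 0.0123). Per1 was the 1 clock gene called with all 8 mice.

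Of 18 interferon-stimulated genes, 7 were lower and none was higher than baseline, and none was called with all 8 mice. Irf7, a transcription factor of the interferon response, was at 46.1 and 109.9 CPM in baseline CTL, 28.6 and 24.9 CPM in lesional CTL and 17.7 and 18.6 CPM in lesional butyrate mice (-2.10 ± 0.38, FDR = 0.0244). The baseline mice were far apart for this gene, and the summed level of the list was 338 and 656 CPM in baseline CTL and 249.8 and 261 CPM in butyrate-treated mice. Without baseline CTL replicate 2 the median log2 fold change of the list moved from -0.88 to -0.17. Of 15 hair growth genes, 4 were lower than baseline under butyrate and 7 in lesional CTL skin. The list as a whole was not lowered under butyrate, with a median log2 fold change of 0.09 and 8 genes positive. In lesional CTL skin the median was -0.77, with 3 positive. Among the 4 was the stem cell gene Lgr5, at 39.7 and 38.9 CPM in baseline, 10.4 and 9.52 CPM in lesional CTL and 14.5 and 16.1 CPM in butyrate-treated mice (-1.36 ± 0.12, FDR = 0.00636).

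Of 26 electron transport genes, 25 (96.2%) were near baseline, where all tested genes had 68.7%. Being within 2-fold did not mean unchanged, as only 1 of the 26 had a positive log2 fold change. Their median was -0.24, against -0.01 over all tested genes. Cholesterol synthesis with 16 of 21 genes (76.2%), fatty acid oxidation with 18 of 24 (75%) and ceramide genes with 14 of 22 (63.6%) were close to that share, and fatty acid synthesis with 10 of 20 (50%) was below it. Of the fatty acid oxidation genes, 1 was called higher and 2 lower, and none with all 8 mice. Over all tested genes, 3.79% were called higher and 4.64% lower. Only 2 of the 24 fatty acid oxidation genes had a positive log2 fold change, with a median of -0.39 under butyrate and -0.46 in lesional CTL skin. Their summed level was 3625 and 3068 CPM in baseline CTL, 2237 and 2037 CPM in lesional CTL and 2107 and 2318 CPM in lesional butyrate mice. Pdk4, which restrains glucose oxidation, was lower at 29.9 and 96.1 against 808 and 437 CPM (-3.30 ± 0.55, FDR = 0.0232), and Bdh1, which oxidizes ketone bodies, was higher at 43.5 and 34.2 against 17.3 and 15.7 CPM (1.23 ± 0.23, FDR = 0.025). Both were called in the same direction in lesional CTL skin. Without baseline CTL replicate 1 the calls of Pdk4 and Bdh1 were lost, and that of Bdh1 also without replicate 2. Of 22 ceramide genes, 1 was called higher, where 3.79% of all tested genes were. This was the desaturase gene Degs2, at 17.1 and 10.9 against 3.23 and 1.78 CPM (2.48 ± 0.34, FDR = 0.014), with 14.6 and 12.7 CPM in lesional CTL mice.

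Of the 48 tested genes that the study names in mouse skin, 20 were still higher than baseline and 2 were lower. Near baseline were 9 (18.8%), against 68.7% of all tested genes, and 6 were called with all 8 mice. The study chose many of the 48 on the lesional samples analysed here, so the counts are not independent evidence. The elongase gene Elovl6 was at 908 and 804 CPM in baseline CTL, 734 and 529 CPM in lesional CTL and 1413 and 1206 CPM in lesional butyrate mice, higher than in lesional CTL skin (1.05 ± 0.20, FDR = 0.0939) and above both baseline mice (0.61 ± 0.20, FDR = 0.0798). The acyl-CoA thioesterase gene Acot1 was near baseline at 61 and 62.3 against 51.4 and 40.4 CPM, with 24.2 and 22.8 CPM in lesional CTL mice. Ptgs2, which makes prostaglandin precursors, was at 5.18 and 3.9 CPM, 52.4 and 41 CPM and 21 and 14 CPM and was called against both groups (1.95 ± 0.27, FDR = 0.014, against baseline).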

How the data were processed

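Dorsal skin of 8 mice was profiled by RNA sequencing. The authors aligned reads to GRCm38 with STAR 2.5.2 and counted them over genes with featureCounts under RNASik, and they deposited raw gene counts of 22740 genes. No column held per-sample values outside these 8 mice. Counts were analysed with edgeR 4.0.16 in R 4.3.3: TMM scaling, filterByExpr (minimum count 10), robust quasi-likelihood fits and Benjamini-Hochberg adjustment, with a prior count of 0.125. The fit held the 6 mice of 3 groups (3 residual degrees of freedom, common biological coefficient of variation 0.142). Genes were called at FDR below 0.1 with over 2-fold change. A gene was near baseline when the 95% interval of its log2 fold change lay within 2-fold. Counting intervals are exact, folds marked "at least" use a floor of 3 counts over the group, and both cover counting error only. The 3-count floor was 0.139 to 0.167 CPM per mouse.

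Genes are named as follows: the 10 largest changes in each direction, the 10 largest disease genes near baseline in each direction, genes called apart from both groups, up to 5 members of a list (the largest called and the most abundant) and genes that the study names. The comparison, the gene lists and the choice of 6 mice were made with earlier results of these data known, and a few genes beyond this rule were named after their values were seen. Gene positions come from GENCODE on GRCm38, which matched 21919 identifiers, and promoter sequences from RefSeq. Limma-voom (limma 3.58.1), DESeq2 1.42.0, other scalings, filters and thresholds, all 8 mice, and leaving out each mouse were tried as alternatives. The scripts were tested on simulated data. A few genes that these rules name are not reported here.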

Additional observations from a re-analysis of the deposited data

Results flagged for a closer look

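The baseline butyrate mice take part in none of the comparisons above. In replicate 3 of that group, 9 gene lists were summed to more than 2-fold above the level of both baseline CTL mice, and replicate 1 was not above them in this way. Hair keratins stood at 16400 CPM in replicate 3 against at most 14.5 CPM in baseline CTL skin, hair growth phase genes at 8730 against 358 CPM and melanocyte genes at 849 against 101 CPM. Small proline-rich genes stood at 1950 against 218 CPM, alarmin keratins at 3330 against 1170 CPM and Stefin A genes at 288 against 124 CPM. Tight and gap junction genes stood at 5860 against 1240 CPM, other S100 genes at 3530 against 1740 CPM and cell cycle genes at 1470 against 610 CPM. In replicate 1 the small proline-rich genes were at 194 CPM and the hair keratins at 10.3 CPM.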

How the results depend on the processing

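No paired analysis was possible because no pair of compared groups shares 2 replicate numbers. The counts were 1267 genes called between lesional butyrate and baseline CTL skin, 1860 between lesional CTL and baseline CTL skin, 188 between the lesional groups, 964 disease genes still called and 185 near baseline. The alternatives for the counts of lesional CTL skin and between the lesional groups were chosen after seeing the data. A fit of the 4 mice of the comparison alone gave 1115 calls against baseline, and the other counts were not run in it. Under limma-voom, DESeq2, other scalings, other count filters and FDR below 0.05 all 5 stayed within 1.5-fold, except that DESeq2 gave 408 and FDR below 0.05 gave 47 between the lesional groups. With all 8 mice they were 58, 543, 0, 56 and 32. Without a fold-change threshold they were 4578, 5928, 314, 3644 and 3373. A 1.5-fold margin left 14 disease genes near baseline and a 90% interval 279. Leaving out each mouse gave 412 to 1870 calls against baseline, 1080 to 1997 for lesional CTL skin, 5 to 640 between the lesional groups, 349 to 1086 still called and 87 to 216 near baseline. Of 1677 gene values recomputed for 140 named genes, 138 lost and 13 gained the call and none of the called genes reversed. Of 92 named genes called against baseline, 60 were called in all 6 fits that each left out 1 mouse and 21 with all 8 mice. Of 561 list medians, 71 moved by more than the spread between replicates. With 2 mice a group, 711 disease genes were neither still called nor near baseline. Of these, 280 differed from baseline at FDR below 0.1 by under 2-fold, and 431 had an FDR at or above 0.1.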

Other observations

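None of 14 complement genes was called against baseline, with 3 (21.4%) near it, and lesional CTL skin had 2 called higher. Of 16 Langerhans and dendritic cell markers, 1 was called higher and 10 (62.5%) were near baseline, and lesional CTL skin had 3 called higher. Of 22 cell cycle genes, 1 was called higher and 15 (68.2%) were near baseline, with a median log2 fold change of 0.54 against 0.63 in lesional CTL skin. Of 10 endothelial adhesion genes, 2 were called higher and 8 (80%) were near baseline. Over all tested genes, 68.7% were near baseline, 3.79% were called higher under butyrate and 6.29% were called higher in lesional CTL skin. The shares of cell cycle and of Langerhans and dendritic cell genes near baseline were thus close to that of all genes. Of the 1267 genes called against baseline, 80 higher and 223 lower genes were not called in lesional CTL skin.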
